A study of Mus musculus with 5 samples.

Results

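The Schlafen genes are a family of interferon-inducible genes that lie next to each other on mouse chromosome 11. Its members described here are Slfn1, Slfn2, Slfn3, Slfn4, Slfn5, Slfn8 and Slfn9, taken by gene symbol, which are 7 of the 30478 genes in the table used here. They were measured by strand-specific RNA sequencing of phagocytes from the abdominal cavity, labelled as mouse peritoneal macrophages, on the C57BL/6 background. The 2 mutant libraries carry Samhd1 del/del together with cGAS-GFP ki/ki, a deletion of the dNTP hydrolase SAMHD1 and a GFP knock-in at the DNA sensor gene Cgas, and both came from 8-week females. The 3 wt libraries came from a 13-week male (wt 1), a 13-week female (wt 2) and a 9-week female (wt 3). Each mutant library was younger than each wt library and carries both genetic changes, so the deletion, the knock-in and age cannot be told apart in any comparison. Age and sex set the wt libraries apart as different animals, whereas the labels do not say whether the mutant libraries came from separate animals, so the spread between the mutants may be technical.

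Schlafen proteins share an N-terminal core with a Schlafen box and differ in what follows it. Slfn1 and Slfn2 (group I) are short proteins, Slfn3 and Slfn4 (group II) carry an additional linker region, and Slfn5, Slfn8 and Slfn9 (group III) end in a helicase-like region. The family was named for its effect on thymocyte growth. Several mammalian members bind or cut transfer RNA, and many are transcribed in myeloid cells after interferon or Toll-like receptor signals.

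The coding sequences reflected these groups in length. In GENCODE M21 the longest coding sequence was 1011 bases for Slfn1 and 1134 for Slfn2, 1920 for Slfn3 and 1806 for Slfn4, and 2652 for Slfn5 against 2730 for both Slfn8 and Slfn9. Slfn8 and Slfn9 were identical at 92.7% of aligned coding bases, and Slfn3 and Slfn4 at 92.3%. Slfn1 and Slfn2 matched at 71.3%, so these group I members are further apart than the other close pairs. Of the 50-base windows of its transcripts, Slfn8 shared 14.6% with another Schlafen gene, Slfn9 11.2%, Slfn4 8.16%, Slfn3 7.39%, Slfn2 4.27%, Slfn1 0.606% and Slfn5 0%. Counted against any other gene, the share was 15.6% for Slfn3, 14.6% for Slfn8, 11.5% for Slfn9 and 10.8% for Slfn4. It was 4.27% for Slfn2, 3.37% for Slfn5 and 0.606% for Slfn1. The sources used here do not give how reads that match several genes were counted, so values of Slfn8 against Slfn9 and of Slfn3 against Slfn4 are less certain than those of Slfn1 and Slfn5.

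The promoters are shown because all members were lower in the mutant. RefSeq sequence of build GRCm38.p6 was found for 7 of 7 members, and each stretch of 100 bases is given 5′ to 3′ on the strand of its gene. In the first 4 sequences the capitals mark the longest run of letters that Slfn1, Slfn2, Slfn3 and Slfn4 share before their start sites.
Slfn1: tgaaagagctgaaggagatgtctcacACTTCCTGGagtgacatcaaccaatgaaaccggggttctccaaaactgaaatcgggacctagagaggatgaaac
Slfn2: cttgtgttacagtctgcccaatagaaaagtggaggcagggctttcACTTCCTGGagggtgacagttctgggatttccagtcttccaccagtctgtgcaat
Slfn3: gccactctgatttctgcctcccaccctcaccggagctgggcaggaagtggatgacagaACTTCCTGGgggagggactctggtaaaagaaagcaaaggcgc
Slfn4: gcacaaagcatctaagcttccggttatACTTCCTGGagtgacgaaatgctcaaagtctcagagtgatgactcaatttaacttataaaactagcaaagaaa
These stretches end 1 base before the start site and lie at chr11:83116720-83116819, chr11:83065012-83065111, chr11:83191230-83191329 and chr11:83175086-83175185, all on the plus strand. The shared run of 9 letters begins at -74 in Slfn1, -55 in Slfn2, -42 in Slfn3 and -73 in Slfn4, counted in bases from the start site. It was picked after the sequences were seen. The background was 32851 RefSeq promoters of 300 bases (250 before the start and 50 after it). Of these, 0.700% hold the run on either strand in the 250 bases before the start, the only part searched for it. Slfn1 and Slfn4 continue to share it for 15 letters, ACTTCCTGGAGTGAC, which no promoter other than these 2 holds in the bases before its start. In the next 3 sequences the capitals mark the core of the interferon-stimulated response element, searched on both strands as GAAANNGAAA.
Slfn5: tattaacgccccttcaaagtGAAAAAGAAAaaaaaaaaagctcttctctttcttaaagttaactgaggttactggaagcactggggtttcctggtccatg
Slfn8: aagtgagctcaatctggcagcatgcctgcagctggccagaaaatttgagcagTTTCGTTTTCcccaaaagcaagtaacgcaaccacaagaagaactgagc
Slfn9: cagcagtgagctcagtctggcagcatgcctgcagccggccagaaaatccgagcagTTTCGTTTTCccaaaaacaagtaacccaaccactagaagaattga
The Slfn5 stretch runs from -175 to -76 on the plus strand (chr11:82951927-82952026), and those of Slfn8 (chr11:83020811-83020910) and Slfn9 (chr11:82991831-82991930) end 1 base before the start site on the minus strand. The core was found at -155 to -146 in Slfn5, at -48 to -39 in Slfn8 and at -45 to -36 in Slfn9, in the last 2 on the strand opposite to the gene. These 3 group III members are 3 of 7, against 3.44% of all promoters of the same length and 3.99% of genes with such a promoter. Slfn8 has a second RefSeq start, from which the same match lies at -136 to -127. The gamma-activated site, searched as TTCNNNGAA, was in 0 of 7 member promoters and in 8.30% of all promoters. Slfn8 and Slfn9 matched at 85.1% of their aligned promoter bases (206 of 242), the highest of the 21 pairs. Their response element matches hold the same letters, so they do not count as independent. A match describes letters only, and its absence from these windows says nothing of binding. The RefSeq start of Slfn5 lies inside the GENCODE gene, which begins at 82951349.

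Depth was 28517346 and 27282354 reads in mutants 1 and 2, and 33119434, 30817815 and 30026622 in wt 1 to 3. Values are normalized counts, the reads of a gene divided by 1 size factor per library, in which 1 read is worth 0.829 to 1.06. Both targeted genes were lower in the mutant libraries: Samhd1 read 1279 in mutant 1 and 1431 in mutant 2, against 16777 to 18274 over the wt libraries, and Cgas 184 in mutant 1 and 85.1 in mutant 2, against 968 to 1211 over the wt libraries. Which part of Samhd1 is deleted is not given in the labels, so its remaining reads could not be placed, and a knock-in label does not by itself predict the level of Cgas. Rn18s, the 18S ribosomal RNA, took 5.28% and 4.04% of reads in the mutants and 0.599% to 1.64% in wt, and its part in the results below was not tested. Of 9 general macrophage markers 9 were detected, with 1 lower (Fcgr1), 2 higher (Lyz2 and Mertk) and 6 not called. Over all genes tested, 4.89% were lower and 3.71% higher. Gata6 and Timd4, which define large resident peritoneal macrophages, had 0 reads in all 5 libraries. Of 3 tested markers of these cells Icam2 was lower (log2 -0.99, limma adjusted p = 0.0184). The other 2, Prg4 (log2 0.71) and Alox15 (log2 0.14), lay in the other direction and were not called.

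All Schlafen members were lower in mutant macrophages, by 1.69-fold to 23.4-fold. Of the 7, 7 passed the limma test at an adjusted p under 0.05 as lower in the mutant, where 4.89% of the 14977 genes tested did. In 7 of 7 both mutant libraries also lay below every wt library, which held for 26.9% of tested genes. The median log2 fold change (mutant over wt, on normalized count + 2) was -1.71 over the members and 0.00 over all genes tested, and 7 of 7 passed the filter on low values. EdgeR on the recovered reads called 7 of 7 lower (4.47% of genes tested), limma-voom 7 of 7 (4.55%) and DESeq2 7 of 7 (10.1%). Limma called 5 members without wt 1 (1.17% of genes tested lower), 6 without wt 2 (1.93%), 5 without wt 3 (1.2%), 7 without mutant 1 (19.9%) and 7 without mutant 2 (5.71%). A fall of at least 2-fold that passed limma was seen for 6 members, all but Slfn2, and for 2.26% of genes tested. In the authors' deposited table, all members (7 of 7) also have an adjusted p under 0.05 (3.66% of its genes lower in the mutant). Log2 fold changes in the authors' deposited table run wt over mutant and are 2.90 for Slfn4, 2.86 for Slfn1, 1.45 for Slfn3, 1.31 for Slfn8, 1.11 for Slfn5, 1.06 for Slfn9 and 0.73 for Slfn2. The fit behind the authors' deposited table drew on further libraries, not analysed here, since its mean is above 0 in 3266 genes with 0 reads in all 5 libraries. In bulk RNA, fewer cells of a type and less RNA per cell cannot be told apart.

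**Figure D1:**
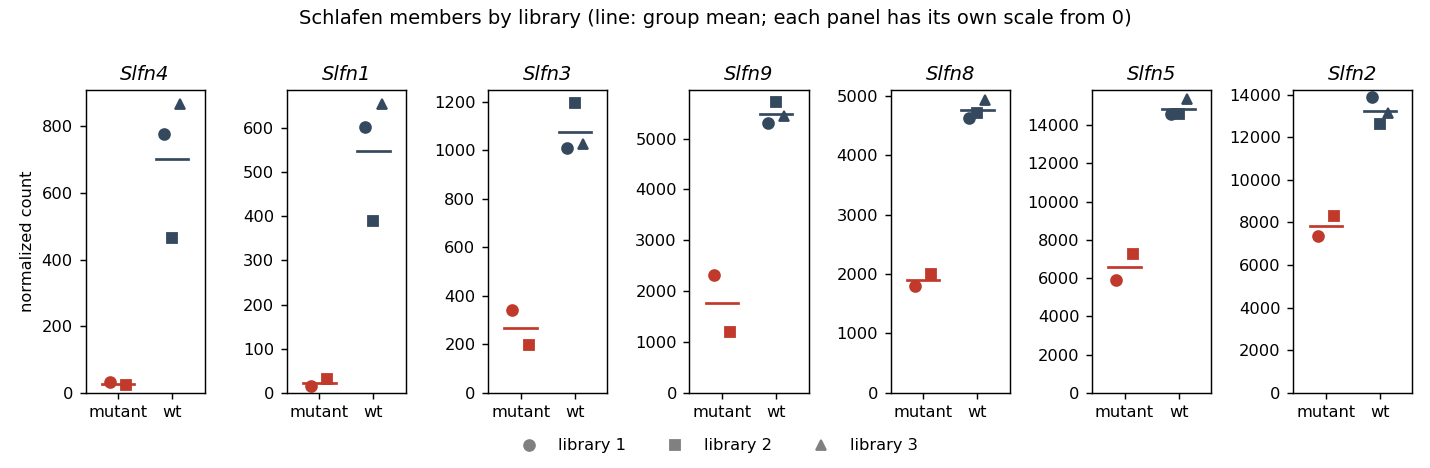
Normalized count of each Schlafen member in each library, mutant at the left and wt at the right of each panel, with a line at the group mean and a separate linear scale from 0 in each panel. Both mutant libraries lie below all 3 wt libraries in every panel, from 3.89% of the wt mean for Slfn4 to 59.3% for Slfn2.

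Group I held the smallest change and one of the largest. Slfn1, the founding member, which slows thymocyte growth when expressed in mice, had 15.7 normalized counts in mutant 1 and 30.8 in mutant 2, against 604, 389 and 653 in wt. The mutant values rest on 16 and 29 reads, with exact Poisson 95% intervals of 9.15 to 26 and 19.4 to 41.6 reads, which cover counting error only. Both lie far below wt 2, the lowest wt library at 434 reads. Slfn1 averaged 23.2 ± 10.7 in the mutant (SD, n = 2) and 549 ± 140 in wt (SD, n = 3), a log2 fold change of -4.48 (SE 0.330, limma adjusted p = 0.00101) or 22.3-fold. Only 6 of 14977 tested genes had a lower fold change.

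Slfn2, the other group I gene, keeps mouse T cells and monocytes quiescent and shields transfer RNA from cleavage in T cells. It had 7369 and 8301 normalized counts in the mutants, against 13871, 12606 and 13141 in wt. Mutant libraries therefore kept 55.8% and 62.9% of the wt mean. Slfn2 averaged 7835 ± 659 in the mutant (SD, n = 2) and 13206 ± 635 in wt (SD, n = 3). Its log2 fold change of -0.75 (SE 0.0836, limma adjusted p = 0.00564) was the smallest of the members. The call was lost without wt 1 or without wt 3 (limma adjusted p = 0.0551 and 0.0558), with log2 fold changes of -0.72 and -0.76. Gm20234, an antisense gene that overlaps Slfn2, had 50.9 and 122 normalized counts in the mutants and 104, 75.4 and 112 in wt (log2 -0.27, limma adjusted p = 0.653). The sources used here do not give the strand setting of the counting, so reads of these overlapping genes cannot be told apart with certainty.

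Group II also split. Slfn4, a myeloid gene that is strongly induced by interferon and Toll-like receptor ligands in mouse macrophages, had 31.3 and 23.4 normalized counts in the mutants, against 778, 466 and 866 in wt. The mutant values rest on 32 reads (exact Poisson 95% interval 21.9 to 45.2) and 22 reads (13.8 to 33.3), so the mutants do not differ from each other beyond counting error. Slfn4 averaged 27.4 ± 5.60 in the mutant (SD, n = 2) and 703 ± 210 in wt (SD, n = 3), 3.89% of the wt mean. Its log2 fold change of -4.55 (SE 0.287, limma adjusted p = 0.00052) or 23.4-fold was the 6th lowest of 14977 genes. It is not separated from Slfn1, and without mutant 2 their order turned, with Slfn4 at -4.35 and Slfn1 at -4.93.

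Slfn3, first described with Slfn1 in thymocytes and linked to differentiation of gut epithelium in rodents, had 343 and 196 normalized counts in the mutants, against 1009, 1196 and 1025 in wt. It averaged 269 ± 104 in the mutant (SD, n = 2) and 1077 ± 104 in wt (SD, n = 3), a log2 fold change of -2.04 (SE 0.231, limma adjusted p = 0.00614) or 4.12-fold. Mutant 2 stood lower than mutant 1, at 18.2% against 31.8% of the wt mean. Within wt the order of libraries differed between this pair: wt 2 was the highest of the 3 for Slfn3 and the lowest for Slfn4.

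Group III fell by 2.27-fold to 3.28-fold. Slfn5, a nuclear protein known to modulate interferon-regulated transcription in human cells, had 5892 and 7238 normalized counts in the mutants, against 14604, 14588 and 15344 in wt. It averaged 6565 ± 952 in the mutant (SD, n = 2) and 14845 ± 432 in wt (SD, n = 3), a log2 fold change of -1.18 (SE 0.1, limma adjusted p = 0.0018). Slfn8, a helicase-like member, had 1795 in mutant 1 and 1998 in mutant 2, against 4625, 4716 and 4932 in wt. Slfn8 had the lowest adjusted p of the family: 1896 ± 144 in the mutant (SD, n = 2) and 4758 ± 158 in wt (SD, n = 3), a log2 fold change of -1.33 (SE 0.0761, limma adjusted p = 0.000368).

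Slfn9, the closest relative of Slfn8, had 2327 and 1199 normalized counts in the mutants, against 5305, 5722 and 5441 in wt. The wt libraries lay close together, while mutant 2 held 0.515 times the count of mutant 1. Slfn9 averaged 1763 ± 798 in the mutant (SD, n = 2) and 5489 ± 213 in wt (SD, n = 3), a log2 fold change of -1.71 (SE 0.254, limma adjusted p = 0.0152). The call was lost when wt 1, 2 or 3 was left out (limma adjusted p = 0.0871, 0.0757 and 0.0838), at log2 fold changes of -1.74, -1.68 and -1.72.

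**Figure D2:**
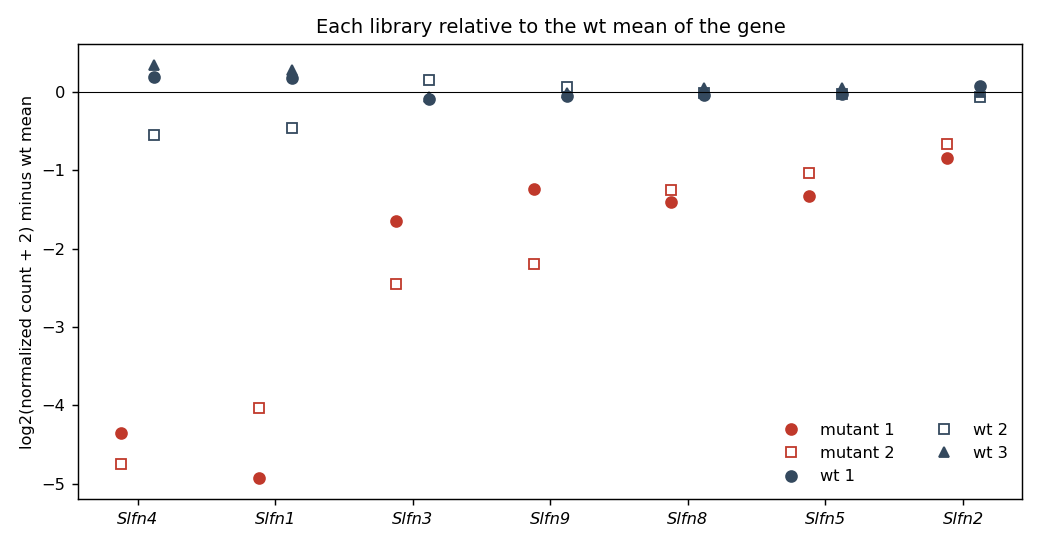
Each library relative to the wt mean of its gene on the scale of log2(normalized count + 2), with mutant libraries left of wt libraries for each member. Slfn3 and Slfn9 lie lower in mutant 2 than in mutant 1 (by 0.80 and 0.96), Slfn1 (by 0.89) lies lower in mutant 1 on 16 and 29 reads whose counting intervals overlap, and wt 2 is the lowest wt library for Slfn1 and Slfn4.

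Slfn9 and Slfn3 were lower in mutant 2, and Slfn5, Slfn2 and Slfn8 in mutant 1. Mutant 2 minus mutant 1 on the log2 scale was -0.96 for Slfn9, -0.80 for Slfn3 and -0.39 for Slfn4, but 0.89 for Slfn1, 0.30 for Slfn5, 0.17 for Slfn2 and 0.15 for Slfn8. For Slfn1 and Slfn4 the counting intervals of the mutants overlap, so no order of these libraries can be read from them. The median of the members relative to wt was -1.40 in mutant 1 and -2.19 in mutant 2, while that of all tested genes was -0.01 and 0.00. The member medians are the values of Slfn8 in mutant 1 and of Slfn9 in mutant 2, so they do not describe the family as a whole. Summed over the members, normalized counts were 17772 in mutant 1 and 18986 in mutant 2. The median of 14 proliferation genes, of which 1 was called, was -0.27 for mutant 1 and -1.42 for mutant 2 relative to wt. Their part in the Slfn9 and Slfn3 values was not tested.

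Slfn1 and Slfn4 had the widest spread in wt. The highest wt library held 1.68 times the lowest for Slfn1 and 1.86 times for Slfn4, against 1.05 to 1.19 times for the other 5 members. In both genes wt 2 was the low library, at -0.46 and -0.54 relative to the wt mean on the log2 scale. Wt 2 also stood lowest in wt for each of 5 monocyte markers and each of 9 macrophage markers, so this order was not particular to monocyte genes. The neutrophil list was divided. Wt 2 was lowest for Csf3r, S100a8, S100a9 and Ngp, but highest for the low genes Camp (13.3, 15.3 and 11.1 in wt 1 to 3), Cxcr2, Retnlg and Ly6g. The share of all tested genes with wt 2 lowest was not counted. Of the 5 monocyte markers, 2 were lower in the mutant and 3 not called (4.89% lower and 3.71% higher over all genes tested). Plac8 read 75.4 and 93.6 in the mutants and 1146, 529 and 1069 in wt (log2 -3.33, limma adjusted p = 0.00391). Ly6c2 read 93.9 and 77.6 in the mutants and 424, 285 and 413 in wt (log2 -2.08, limma adjusted p = 0.00367). Ccr2, the most abundant monocyte marker, read 11526 and 17540 in the mutants and 21241, 13917 and 20645 in wt (limma adjusted p = 0.348). Summed over the list, monocyte markers came to 12317 and 18358 in the mutants and 15249 to 23578 in wt, so the groups overlap. The part of the myeloid marker lists in the Slfn1 and Slfn4 results was not tested.

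Other cell types were described by their own marker lists, against 4.89% lower and 3.71% higher over all genes tested. Neutrophil markers summed to 2212 and 3830 in the mutants and 1601 to 2397 in wt, with log2 fold changes of -0.10 to 0.71 that limma did not call, Csf3r the most abundant, and Ly6g at 0 to 1 read. T cell markers summed to 653 and 1235 in the mutants and 258 to 336 in wt, nearly all of it Cd4. Of 2 tested, Cd4 was higher and Lck was not called (log2 -1.27, limma adjusted p = 0.0528). Lck had 7.83 and 5.32 in the mutants and 16.7 to 21.5 in wt. Cd3e, Cd3d, Cd3g, Trac and Cd8a stood at 0 to 5 reads per library. B cell markers summed to 5452 and 6527 in the mutants and 2601 to 3241 in wt, with 1 of 6 called, Ighm, which was higher. The most abundant dendritic cell, NK cell and mast cell markers were Cd209a (log2 0.24), Klrd1 (-0.72) and Kit (-0.11), not called by limma. Other dendritic cell genes lay in both directions without a call: Siglech had 35.2 and 112 in the mutants and 7.18 to 21.6 in wt (log2 2.01), and Xcr1 2.94 and 4.25 in the mutants and 10.8 to 18.5 in wt (log2 -1.43). Of erythroid and platelet markers Ppbp was higher and Pf4, the most abundant, was not called. The part of these lists in the Schlafen results was not tested.

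Per length, Slfn2 was the highest member in both groups. In normalized counts per kb of exon it averaged 4709 ± 396 in the mutant and 7936 ± 382 in wt, followed by Slfn5 at 1038 ± 150 in the mutant and 2347 ± 68.3 in wt. Slfn8 stood at 464 ± 35.1 in the mutant and 1163 ± 38.6 in wt, and Slfn9 at 296 ± 134 in the mutant and 920 ± 35.6 in wt. The low end was Slfn3 (78.9 ± 30.4 in the mutant and 316 ± 30.4 in wt), Slfn1 (12.5 ± 5.76 in the mutant and 294 ± 75.2 in wt) and Slfn4 (6.90 ± 1.41 in the mutant and 177 ± 53.1 in wt), all SD with n = 2 in the mutant and n = 3 in wt. The order of levels was the same in both groups. In wt the library ranges of Slfn3 (296 to 351) and Slfn1 (209 to 351) overlapped, as did those of Slfn1 and Slfn4 (117 to 218). In the mutant no pair of neighbours in that order overlapped. For Slfn1 and Slfn4 this rests on few reads: in mutant 1 they stood at 8.40 (16 reads) and 7.90 (32 reads), a gap within counting error.

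Summed over the members, Schlafen reads made up 637 and 655 CPM (counts scaled to the library total) in the mutants and 1486, 1435 and 1488 CPM in wt, a mutant level of 43.9% of wt. Slfn2 took a larger share of that sum in the mutant: it held 42.6% ± 1.6 of Schlafen reads in the mutant (SD, n = 2) and 32.5% ± 1.30 in wt (SD, n = 3). Slfn5 held 35.6% ± 3.51 in the mutant and 36.5% ± 0.660 in wt, within the spread between libraries. Slfn8 held 10.3% ± 0.299 in the mutant and 11.7% ± 0.324 in wt. Slfn9 held 13.1% and 6.32% in mutants 1 and 2 and 13.0% to 14.4% in wt, so mutant 1 lay within the wt range. Slfn3 held 1.93% and 1.03% in the mutants and 2.47% to 3.01% in wt. Slfn1 and Slfn4 together held 0.264% and 0.286% in the mutants and 2.16% to 3.67% in wt.

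**Figure D3:**
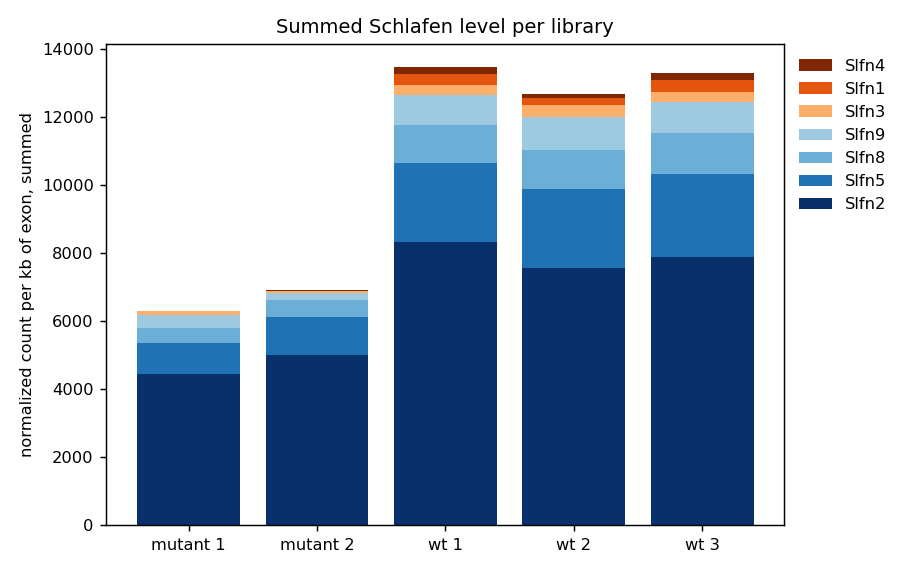
Summed Schlafen level per library in normalized counts per kb of exon, stacked by member, with mutants 1 and 2 left of wt 1 to 3 and the axis starting at 0. The sum is 6305 and 6902 in the mutants against 12671 to 13480 in wt, and the bands of Slfn1 and Slfn4 at the top of the wt bars are barely visible in the mutants.

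Ratios between members were taken as differences of log2(normalized count + 2). The library size factor cancels in them except through the added 2, which weighs on the low mutant counts of Slfn1 and Slfn4. Of the 21 pairs, 18 had ratios that did not overlap between mutant and wt, with an exact two-sided permutation p of 0.1 (Benjamini-Hochberg 0.117), the smallest that 2 against 3 libraries allow, so no pair could pass 0.05. The pairs share members and are not independent, and many of the 18 hold Slfn1 or Slfn4. The share of non-overlapping ratios over all gene pairs was not computed, so the count describes these members only. The log2 ratio of Slfn2 to Slfn5 was 0.32 and 0.20 in the mutants and -0.07, -0.21 and -0.22 in wt. Slfn3 to Slfn4, the group II pair, was 3.37 and 2.96 in the mutants and 0.37, 1.36 and 0.24 in wt, and Slfn1 to Slfn2, the group I pair, was -8.71 and -7.98 in the mutants and -4.52, -5.01 and -4.33 in wt. In each of these pairs the mutant ratios lay apart from the wt ratios. The overlapping ratios were Slfn1 to Slfn4 (-0.92 and 0.37 in the mutants, -0.40 to -0.26 in wt, exact permutation p = 0.8), Slfn5 to Slfn9 (1.34 and 2.59 in the mutants, 1.35 to 1.5 in wt, exact permutation p = 0.4) and Slfn8 to Slfn9 (-0.37 and 0.74 in the mutants, -0.28 to -0.14 in wt, exact permutation p = 0.6). In each of these 3 ratios the wt libraries lay close together and the mutants further apart.

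On GRCm38 (GENCODE M21) the members lie on chromosome 11 between 82951349 and 83215154, within 264 kb. In order along the chromosome they are Slfn5 (82951349 to 82964840, plus strand), Slfn9 (82978390 to 82991830, minus), Slfn8 (83002158 to 83020810, minus), Slfn2 (83065112 to 83070678, plus), Slfn1 (83116849 to 83122670, plus), Slfn4 (83175186 to 83190216, plus) and Slfn3 (83191330 to 83215154, plus). The members with the largest falls, Slfn1, Slfn4 and Slfn3, are the last 3 in that order. Of 10 tested genes inside this span, 3 are no members. The pseudogene Slfn10-ps, which lies between Slfn8 and Slfn2, had 983 and 841 normalized counts in the mutants and 1643, 1646 and 1707 in wt, and fell (log2 -0.87, SE 0.0891, limma adjusted p = 0.00402). It shares 19.7% of its 50-base windows with Slfn8 or Slfn9, so its reads are not fully its own. Gm11425 (log2 -0.64, limma adjusted p = 0.0917) and Gm20234 did not pass.

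Genes beside the cluster were mixed in direction. Of 24 protein-coding neighbours within 500 kb on either side, 16 were tested, of which 2 were lower, 2 higher and 12 not called (4.89% lower and 3.71% higher over all genes tested), with a median log2 fold change of -0.09. The nearest tested neighbour on the Slfn5 side was Nle1, a ribosome assembly factor gene, at 173 and 151 in the mutants and 198, 266 and 193 in wt (log2 -0.42, limma adjusted p = 0.170). The chemokine gene Ccl5 fell (39.1 and 60.6 in the mutant libraries against 180, 124 and 165 in wt, log2 -1.62, limma adjusted p = 0.0177), as did Taf15 (log2 -0.63, limma adjusted p = 0.0399). The ubiquitin ligase gene Rffl rose (530 and 762 in the mutant libraries against 235, 214 and 226 in wt, log2 1.49, limma adjusted p = 0.00579), as did Wfdc17 (log2 1.38, limma adjusted p = 0.0135). The chemokine gene Ccl9, the most abundant neighbour, read 23770 and 26387 in the mutants and 29128, 28095 and 26875 in wt and was not called (log2 -0.16, limma adjusted p = 0.238). The count of 4 called neighbours was 1 without wt 1 or wt 3, 2 without wt 2 and 7 without mutant 1, a fit in which 4991 of 14689 genes were called.

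**Figure D4:**
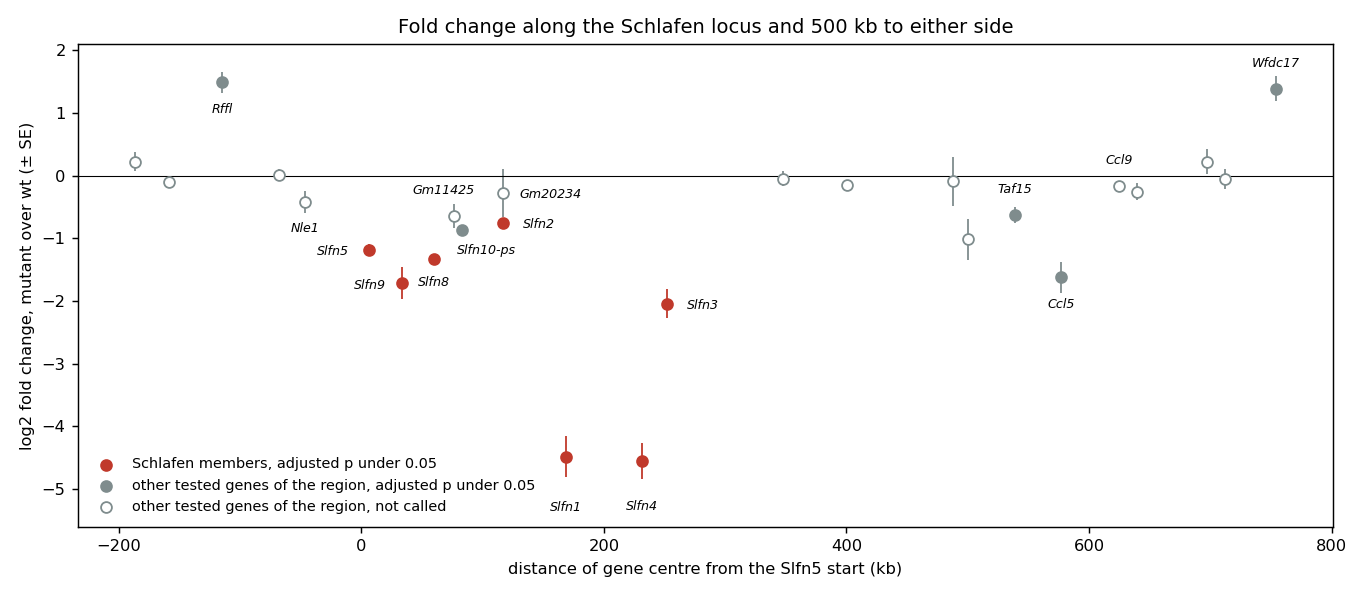
Log2 fold change (mutant over wt, ± SE) of tested genes against the distance in kb of the gene's centre from the Slfn5 start, with Schlafen members in red, other genes inside the cluster and protein-coding neighbours in grey, and open symbols for genes not called, of which a few are labelled. The 7 members run from -0.75 to -4.55, while 12 of 16 neighbours are not called and Rffl and Wfdc17 lie above 0.

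Of the remaining genes related to the family, none but the pseudogene Slfn10-ps, described above, was called. Slfn14, a group III gene beside the cluster, had 4 and 8 reads in the mutants and 11, 2 and 11 in wt, and the Schlafen-like gene Slfnl1 on chromosome 4 had 6 and 10 reads in the mutants and 5, 6 and 5 in wt. Neither entered the test. Slfn5os, antisense to Slfn5, had 5 and 0 reads in the mutants and 1, 0 and 2 in wt, where 0 allows up to 3 reads. The pseudogene Gm11427, just beyond Slfn3 and sharing 6.45% of the 50-base windows of Slfn3, had 397 and 358 normalized counts in the mutants and 409, 372 and 398 in wt (log2 -0.06, limma adjusted p = 0.733).

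Interferon receptors signal through JAK kinases, STAT factors and IRF9, which act on response elements in target promoters. Of 17 tested genes of this pathway and its feedback, 8 were lower, 1 higher and 8 not called (4.89% lower and 3.71% higher over all genes tested), with a median log2 fold change of -0.09 against -1.71 for the Schlafen members. The lowest adjusted p belonged to the transcription factor Irf7 (log2 -3.80), the ISG15 protease Usp18 (-2.87) and the ubiquitin-like modifier Isg15 (-3.04), with limma adjusted p of 1.44e-05 to 8.53e-05. Slfn1 and Slfn4 had lower fold changes than any of these 17. Slfn2, Slfn5, Slfn8 and Slfn9 lay between those of Irf9 (-0.53) and Stat2 (-1.86). The receptor gene Ifnar1, named after its values were seen, was the 1 higher gene (log2 0.40). The count of 9 called was 5 without wt 1 or wt 3, and 14 without mutant 1, where 4991 of 14689 genes were called.

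Genes of transfer RNA cleavage and surveillance, the process in which Slfn2 acts in T cells, were mostly not called. Of 16 tested, 1 was higher, 1 lower (the translation factor subunit Eif2s1, log2 -0.46, limma adjusted p = 0.0356) and 14 not called, against 4.89% lower and 3.71% higher over all genes tested, with a median of -0.05. Ang, the ribonuclease angiogenin, had 348 and 425 normalized counts in the mutants and 289, 257 and 237 in wt and missed the threshold (log2 0.56, limma adjusted p = 0.0605), as did the kinase gene Map3k20 (-0.51, limma adjusted p = 0.0567). Limma called 0 of the 16 when wt 1, 2 or 3 was left out, and 9 were called without mutant 1 (4991 of 14689 genes in all) and 4 without mutant 2 (1332 of 14684). Of 14 proliferation genes, 1 was lower (the replication clamp Pcna, log2 -1.08, limma adjusted p = 0.0305) and 13 not called, among them Cdkn1b (0.52), Ccne1 (-1.78) and Ccnd1 (-1.73), with a median of -0.84 and the same shares over all genes. That count was 0 without wt 1, wt 2 or wt 3, 13 without mutant 1 and 6 without mutant 2.

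For each member the 3 genes of most similar pattern were sought among 11638 tested genes with a symbol, by the root-mean-square distance over the 5 libraries of log2(normalized count + 2), each gene centred on its wt mean. They describe a pattern over 5 libraries and carry no test. Slfn5 lay closest to Trim30a (0.0506), Sp100 (0.0508) and Mndal (0.0512). Slfn8 lay closest to Znfx1 (0.0425), Irgm2 (0.0431) and Prr5l (0.0498), of which the RNA helicase-like gene Znfx1 read 8022 and 8400 in the mutants and 19621, 19819 and 20396 in wt. Slfn2 lay closest to Fam83f (0.0324), Hrh2 (0.0421) and Msl3l2 (0.0476).

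For Slfn3 and Slfn9 the closest genes stood lower in mutant 2, which follows from their choice by distance over the same libraries. They were Flrt2 (0.0510), the urea cycle gene Ass1 (0.106) and the nucleoside kinase gene Dck (0.112) for Slfn3, and Plxna4 (0.0761), Atp10a (0.0841) and St3gal6 (0.0961) for Slfn9. Dck read 2695 and 1632 in the mutants and 7565, 8197 and 7507 in wt, and Plxna4 stood at 3.91 and 1.06 in the mutants and 9.95, 12.6 and 12 in wt, a level of few reads. Slfn1 and Slfn4 had no gene so close. Their mutant values rest on 16 to 32 reads and their wt libraries spread the most of the members. The part of this in their distances was not tested. The nearest to Slfn1 were Apol9b (0.251), Ifi213 (0.276) and Phf11a (0.292), and the nearest to Slfn4 were Ifi206 (0.255), Ifi213 (0.294) and the guanylate-binding protein gene Gbp6 (0.333). Ifi213, the 1 gene named for both, read 48.9 and 59.5 in the mutants and 1584, 1243 and 1564 in wt. Several of these genes belong to families with near-identical copies, whose reads can be shared.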

How the data were processed

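Strand-specific RNA sequencing libraries of mouse peritoneal macrophages, 2 mutant and 3 wt, were compared. Per the submitters' processing notes, tools were STAR, Subread featureCounts and DESeq 1.6.1, with build mm10. The sources used here give no aligner settings, annotation, strand setting or read length. Judged from its values, the signal that the authors deposited is gene-wise read counts over a size factor of each library, since 100% were whole multiples of 1 read within 0.001. The authors' deposited log2 fold change runs wt over mutant, as judged from the group means. The p-value columns that the authors deposited were used for their calls. The authors' GC percent column was not used.

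Because values were normalized, the test was limma 3.58.1 (R 4.3.3) on log2(normalized count + 2), with an intensity trend, which understates the change of low genes. A gene needed a value of 10 in 2 or more libraries. P-values, two-sided, were Benjamini-Hochberg adjusted over all 14977 genes with a threshold of 0.05. EdgeR 4.0.16, DESeq2 1.42.0 and limma-voom were run on the recovered reads as alternatives, beside other pseudocounts, filters and scaling, a replicate block and leaving out each library. The limma and edgeR steps were tested on simulated data. A count of 0 allows 3 reads, or 0.0906 to 0.110 CPM.

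The members and lists were chosen with earlier results of these data known. Named genes are the members, Samhd1 and Cgas, other Schlafen genes, called neighbours and the most abundant one not called, the 4 list members of lowest adjusted p, the most abundant marker of other cell types, and the 3 genes of most similar pattern; others were named after their values were seen, and some genes that this rule names are not reported here. Positions come from GENCODE M21 by Ensembl identifier (97.1% of genes found), since the deposited coordinates did not match that build. Only genes on the autosomes were analysed here.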

Additional observations from a re-analysis of the deposited data

How the results depend on the processing

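Over 15 alternatives no log2 fold change of a member, Samhd1, Cgas or Slfn10-ps turned its direction, nor did the member median. Direction was not followed for other genes. Samhd1, Slfn1 and Slfn4 kept their calls in all 15 (highest adjusted p 0.0123, 0.0425 and 0.0151). The libraries share only a replicate number: across genes, deviations of same-numbered libraries correlated at -0.23 and -0.36. With the replicate block 2 members were called and 81 genes in all (75 of them lower), 4 of the interferon pathway and 0 of the neighbours, the proliferation list and the transfer RNA list. Under the block the log2 fold changes and adjusted p were -0.76 and 0.226 for Slfn2, -2.08 and 0.101 for Slfn3, -1.16 and 0.101 for Slfn5, -1.30 and 0.0527 for Slfn8, -1.72 and 0.134 for Slfn9, -0.85 and 0.157 for Slfn10-ps and -3.10 and 0.0703 for Cgas. The block leaves fewer residual degrees of freedom.

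By DESeq2 2429 genes were called over all genes against 1288 by limma, 4 of the proliferation list and 6 of the transfer RNA list, and limma-voom called 2 of the proliferation list; the cause was not tested. The median of the members was -1.63 by edgeR and -1.63 by DESeq2. Leaving out each library in turn gave 5 to 7 members called, a median of -2.19 to -1.40, Slfn2 at -0.84 to -0.67, Slfn9 at -2.19 to -1.24, 202 to 4991 genes called in all, 5 to 14 of the interferon pathway, 1 to 7 neighbours, 0 to 13 of the proliferation list and 0 to 9 of the transfer RNA list. Where 1 mutant library was left, it was assumed to vary like wt. Depth limits Slfn1 and Slfn4 in the mutants to 16 to 32 reads.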
